A study of Mus musculus with 6 samples.

Results

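Homologous recombination and Fanconi repair genes were compared between ovaries of WT mice and ovaries labelled Hnrnpl-null. The set has 35 genes out of the 25239 genes of the deposited count table, and its members were picked by name as general factors that meiotic cells share with dividing somatic cells. Both groups hold 3 RNA-seq libraries from C57BL/6 mice at E18.5, with WT and Hnrnpl-null as the only labelled difference. The titles of the Hnrnpl-null libraries carry the letters CKO, and the labels name neither a Cre driver nor the cells in which Hnrnpl, an RNA-binding regulator of splicing, was removed. The name of the deposited count table carries the letters stra8, without saying what they stand for. The cell type is labelled oocyte and the tissue ovary, but the stromal genes Col1a1 and Col1a2 stood at 471 and 235 CPM per kb of exon in WT (CPM is the count of a gene relative to the library size scaled by TMM), against 19.5 CPM per kb for the germ cell gene Dazl. Stromal RNA was therefore present beside that of germ cells.

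Homologous recombination repairs a broken chromosome by copying an intact sister or homologue. The break is bound and trimmed to single-stranded DNA, the single strand is coated by RPA, and BRCA2 with its partners then prepares the coated strand to pair with the intact copy. Break signalling marks the chromatin around the break, and the Fanconi pathway opens crosslinks between DNA strands and hands the resulting breaks to recombination. At this age oocytes are in late meiotic prophase, where the same proteins work beside meiosis-only factors on the programmed breaks that the germ cell makes itself, while pregranulosa, stromal and blood cells use them during DNA replication.

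No member was called. All 35 passed the filter on low counts, and edgeR's quasi-likelihood test at an adjusted p below 0.05 called 0 lower and 0 higher, where it called 4.46% of the 14849 tested genes, 1.79% lower and 2.67% higher. DESeq2 called 2 members lower (Mdc1 and Fancd2) and 1 higher (H2ax), against 2.69% and 4.07% of the genes it tested, and limma-voom called 1 lower (Rad50) and 0 higher, against 3.35% and 5.22%. At an unadjusted edgeR p below 0.05 there were 8 lower members (22.9%, against 8.53% of all tested genes) and 2 higher (5.71%, against 9.97%). The estimate was lower in Hnrnpl-null for 27 members and higher for 8, a lower share of 77.1% where all tested genes gave 51.2%. The median log2 fold change of the members was -0.17, beside -0.01 for all tested genes. The 3 libraries of each group did not overlap for 9 members (25.7%), close to the 25.6% of all tested genes, with 7 lower (20%, against 13.2%) and 2 higher (5.71%, against 12.4%).

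**Figure D1:**
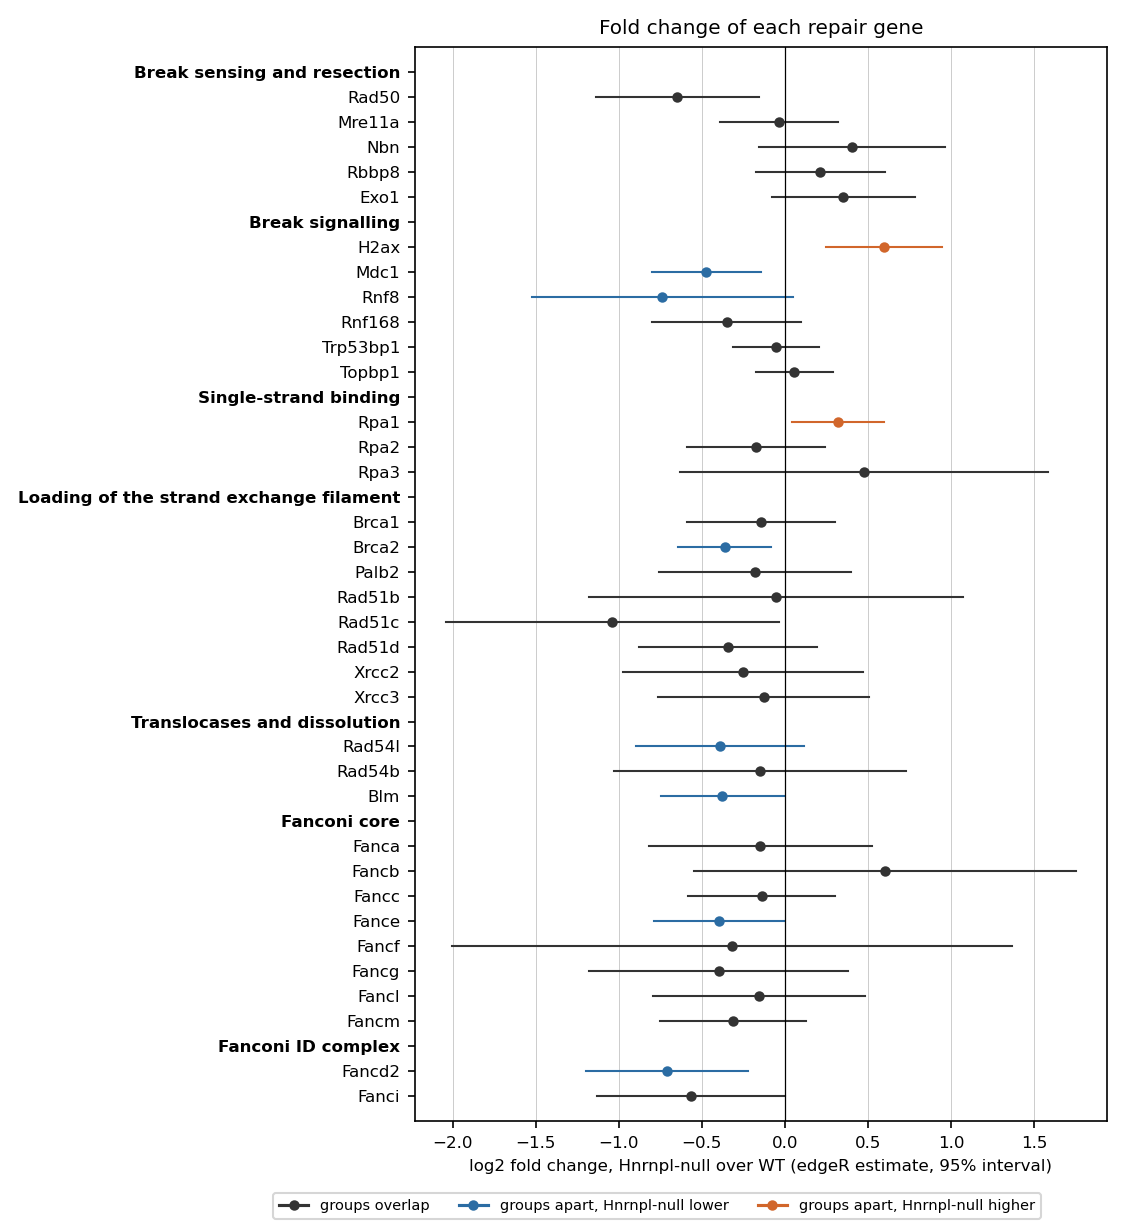
The log2 fold change of Hnrnpl-null over WT is plotted for each of the 35 repair genes, ordered by role, as the edgeR estimate (point) with its 95% interval (line), and colour marks the genes whose groups did not overlap. Estimates lie to the left of 0 for 27 genes, and the low-count genes Fancf, Fancb and Rad51b have the widest intervals.

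The precision of these estimates sets what could be seen. For 24 of the 35 members the 95% interval of the log2 fold change lay between -1 and 1, so a change of the summed ovarian level by a log2 unit or more was outside it. The other 11 had intervals that reached further, Fancf from -2.01 to 1.37. The exons of 11 members (Rnf8, Trp53bp1, Xrcc3, Rad54l, Rad54b, Fanca, Fancc, Fancf, Fancl, Fancd2 and Fanci) overlap those of another gene. The overlap ran from 12 bases in Xrcc3 to 4126 in Rad54b. Reads of shared bases may be mixed in or left uncounted, and how they were treated was not given. A missed threshold does not show that a member kept its level. Each level is a sum over all cells in a library, so fewer cells of a type and less RNA per cell cannot be told apart.

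Library quality was uneven in a way that touches the members. The ribosomal RNA precursor Rn45s made up 83.0% of WT replicate 1 and 86.1% of Hnrnpl-null replicate 3, against 18.6% to 36.0% of the other libraries, and the members together held 4880 and 1842 counts in those libraries against 9105 to 15675 in the others. A single count was worth 0.312 CPM in Hnrnpl-null replicate 3 and 0.0381 to 0.132 CPM in the rest. That shallow library gave the lowest of the 6 values for 15 members and the highest for 10. Hnrnpl itself ran from 145 to 172 CPM in WT and from 166 to 213 CPM in Hnrnpl-null, so its gene-level count is no check of the labels.

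The levels spanned a wide range, and the order was nearly the same in both groups. Per kilobase of exon, H2ax, the histone variant that is phosphorylated around breaks, was the most abundant at 29.5 CPM per kb in WT, followed by Topbp1 at 13.1, Rpa2 at 11, Rpa1 at 9.57 and Mdc1 at 9.27 CPM per kb. The same 5 genes filled the first 5 places in Hnrnpl-null, where Rpa1 stood above Rpa2. At the bottom were Rad54b at 0.582, Fancb at 0.600, Rad51b at 0.763 and Fancf at 0.938 CPM per kb in WT. The length used includes exon shared with another gene, 4126 of 7051 bases in Rad54b and 1629 of 2078 in Rnf8. If reads of shared bases went uncounted, these values are too low, so the places of both genes are uncertain. The median member was at 3.18 CPM per kb in WT and 2.91 in Hnrnpl-null, beside 3.81 for all tested genes in WT.

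**Figure D2:**
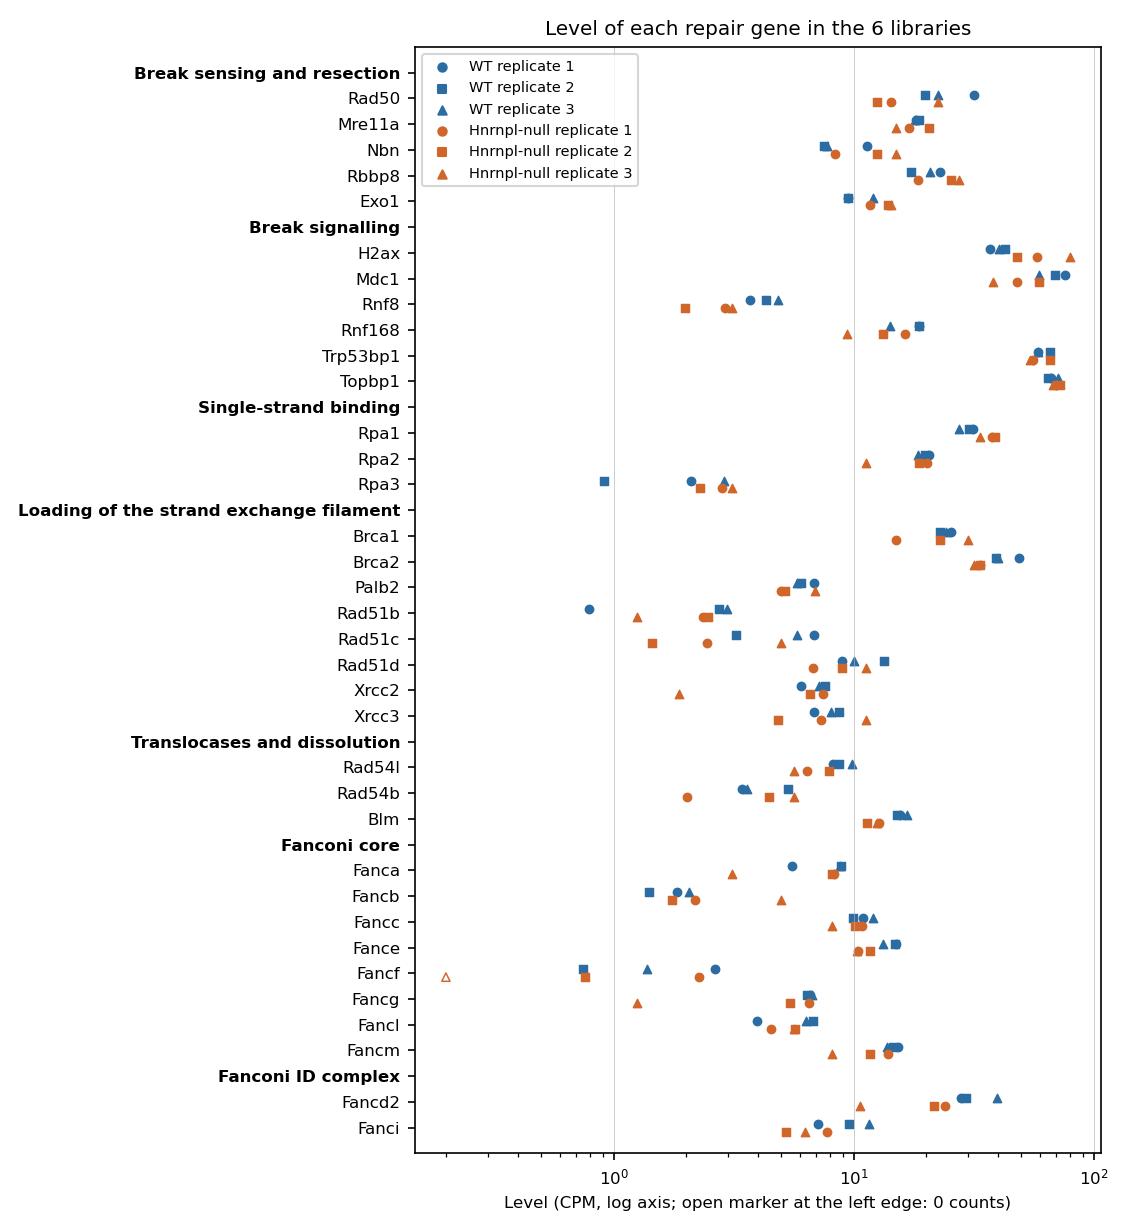
The level of each repair gene in CPM (log axis) is plotted for the 3 WT and 3 Hnrnpl-null libraries, with a marker shape for each replicate number and genes ordered by role. Topbp1 and Trp53bp1 sit in tight overlapping clusters, the Fancd2 groups are apart, and the triangle of Hnrnpl-null replicate 3 is the lowest or highest point for many genes.

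The promoters of 26 members were found in the RefSeq promoter table (GRCm38.p6, 250 bases before to 50 after the start of the gene). They were searched on both strands for letters bound by regulators of dividing or meiotic cells. E2F letters (TTTCCCGC, TTTCGCGC, TTTGCCGC or TTTGGCGC) were present in 5 of the 26 (19.2%), against 2.61% of all 27025 genes with a promoter and 4.52% of those tested here. The 5 were Brca2, Fancg, Mdc1, Rad51c and Topbp1. The CCAAT letters were in 18 of 26 (69.2%, against 41.1% of all genes and 42.4% of those tested). The CHR element TTTGAA was in 2 (7.69%, against 20.2% and 14.3%). The letters CNCCTCAG of the meiotic factor STRA8 were in 3 (11.5%, against 9.12% and 10.9%). The 4 promoters below are shown because they pair the E2F letters with differing readouts. Mdc1 (chr17:35841248-35841547, plus strand) and Brca2 (chr5:150522371-150522670, plus strand) carry them and had lower estimates in Hnrnpl-null, Topbp1 (chr9:103305077-103305376, plus strand) carries them and had an estimate near 0, and Rpa1 (chr11:75348334-75348633, minus strand) lacks them and had a higher estimate. Each is printed 5′ to 3′ on the strand of its gene, with the E2F letters in capitals.
Mdc1: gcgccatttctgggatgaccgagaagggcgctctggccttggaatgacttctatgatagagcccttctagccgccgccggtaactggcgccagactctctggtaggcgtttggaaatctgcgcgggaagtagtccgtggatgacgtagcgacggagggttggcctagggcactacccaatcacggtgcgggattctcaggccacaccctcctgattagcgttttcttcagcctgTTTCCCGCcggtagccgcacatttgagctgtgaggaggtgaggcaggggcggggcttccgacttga
Brca2: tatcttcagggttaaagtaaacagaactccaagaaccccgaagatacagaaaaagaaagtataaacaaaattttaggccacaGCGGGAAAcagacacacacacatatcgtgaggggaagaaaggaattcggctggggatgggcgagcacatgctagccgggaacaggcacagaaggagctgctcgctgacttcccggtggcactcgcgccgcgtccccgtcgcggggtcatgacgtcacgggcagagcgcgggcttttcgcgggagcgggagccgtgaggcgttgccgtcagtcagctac
Topbp1: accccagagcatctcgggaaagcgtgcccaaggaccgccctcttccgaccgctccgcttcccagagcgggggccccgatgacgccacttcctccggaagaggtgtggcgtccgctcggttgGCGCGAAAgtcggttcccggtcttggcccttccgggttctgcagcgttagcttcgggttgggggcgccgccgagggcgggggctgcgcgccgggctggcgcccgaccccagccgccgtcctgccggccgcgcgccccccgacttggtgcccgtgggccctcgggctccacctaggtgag
Rpa1: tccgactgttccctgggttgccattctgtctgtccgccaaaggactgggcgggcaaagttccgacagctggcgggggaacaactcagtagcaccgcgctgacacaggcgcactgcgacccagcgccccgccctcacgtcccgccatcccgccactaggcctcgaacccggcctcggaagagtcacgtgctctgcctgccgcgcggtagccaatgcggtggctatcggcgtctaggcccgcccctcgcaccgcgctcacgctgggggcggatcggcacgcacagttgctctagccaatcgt
The E2F letters begin 16 bases before the start in Mdc1, 168 before it in Brca2 and 129 before it in Topbp1, and in Brca2 and Topbp1 they lie on the opposite strand. Of the 5 members with E2F letters, Brca2, Fancg, Mdc1 and Rad51c had lower estimates (log2 fold changes of -0.36, -0.40, -0.47 and -1.04), and Topbp1 was at 0.06. Over all 35 members, including those whose promoter was not found, 27 (77.1%) had lower estimates, so that share is not one of the 26 searched. A match is a description of the window only.

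Among the sensors and trimmers of breaks, Rad50 (chromosome 11, 53649519 to 53707319), the ATPase that tethers broken ends, had the smallest p. WT replicates 1 to 3 stood at 31.6, 19.9 and 22.5 CPM, and replicates 1 to 3 of Hnrnpl-null stood at 14.2, 12.5 and 22.5 CPM. The groups overlapped, since Hnrnpl-null replicate 3 lay level with WT replicate 3 and above WT replicate 2, while the other 2 Hnrnpl-null libraries were below every WT library. On the log2 scale the difference was -0.65 ± 0.23 (SE, n = 3 each, edgeR adjusted p = 0.14). Without Hnrnpl-null replicate 3 it was -0.86 and was called (edgeR adjusted p = 0.026), and over the alternatives its adjusted p ran from 0.024 to 1.0. That upper end came with totals alone, a setting that called 4 genes over the whole table. When a single library was left out, the edgeR adjusted p of Rad50 was at most 0.41. The nuclease Mre11a, which binds RAD50 directly, was level at 18.3 ± 0.341 and 17.6 ± 2.83 CPM (SD, n = 3 each), with a log2 interval of -0.39 to 0.32. Nbn, the subunit that recruits the checkpoint kinase ATM, was at 8.86 ± 2.14 and 12.0 ± 3.36 CPM. Rbbp8, which encodes the end-resection factor CtIP, was at 20.4 ± 2.82 and 23.8 ± 4.75 CPM. Exo1, the exonuclease of long-range trimming, was at 10.3 ± 1.46 and 13.3 ± 1.41 CPM. The estimates of these last 3 were thus higher in Hnrnpl-null, opposite to Rad50, with groups that overlapped and edgeR adjusted p of 0.38 to 0.58.

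Among the break signalling genes, H2ax and Mdc1 had the smallest p, with estimates on opposite sides of 0. H2ax (chromosome 9, 44334715 to 44336073, a single exon) was at 36.9, 42.9 and 40.4 CPM in WT and at 57.8, 48.0 and 79.4 CPM in Hnrnpl-null. Each Hnrnpl-null library was above each WT library, and the shallow replicate 3 was the highest. H2ax had a ratio of 1.51 (95% interval 1.19 to 1.93), and its edgeR adjusted p of 0.055 was the smallest of the set (DESeq2 adjusted p = 0.014). Over the alternatives the adjusted p ran from 0.0038 to 1.0, and it was at most 0.16 (edgeR) when a single library was left out. Without both libraries rich in Rn45s the log2 fold change went from 0.60 to 0.35 and was not called, and without Hnrnpl-null replicate 3 it was 0.40. Without Hnrnpl-null replicate 2 it was called (edgeR adjusted p = 0.032).

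Mdc1 (chromosome 17, 35841498 to 35859670), the adaptor that binds phosphorylated H2AX, had its estimate on the other side of 0. It was at 76.1, 69.2 and 59.1 CPM in WT and at 48.1, 58.9 and 38.1 CPM in Hnrnpl-null. A narrow step from 58.9 to 59.1 CPM kept the groups apart. Its log2 fold change was -0.47 ± 0.15 (SE, edgeR adjusted p = 0.11, and DESeq2 adjusted p = 0.042), and it went to -0.26 without both libraries rich in Rn45s. The adjusted p was 0.032 to 1.0 over the alternatives, and at most 0.30 (edgeR) when a single library was left out. Rnf8, the ubiquitin ligase that MDC1 recruits, was at 3.69, 4.31 and 4.82 CPM in WT and at 2.91, 1.98 and 3.12 CPM in Hnrnpl-null. The groups did not overlap, but its exons share 1629 bases with the gene model Gm28043 and the estimate was imprecise (log2 interval -1.53 to 0.05). Rnf168, the ligase that spreads the ubiquitin mark, was at 17.2 ± 2.61 and 13.0 ± 3.50 CPM.

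Downstream of the ligases the levels were close. Trp53bp1, which encodes 53BP1, the reader of that mark that restrains resection, was at 61.0 ± 4.20 and 58.5 ± 6.21 CPM, and its log2 interval was -0.31 to 0.20. Topbp1, an activator of the kinase ATR, was at 67.2 ± 3.29 and 69.8 ± 2.54 CPM, with an interval of -0.17 to 0.29. These were among the narrowest intervals of the set.

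The 3 subunits of RPA, the trimer that coats single-stranded DNA in replication and repair, did not share a direction. Rpa1 (chromosome 11, 75300259 to 75348383), the large subunit, was at 31.4, 30.3 and 27.5 CPM in WT and at 37.8, 38.8 and 33.7 CPM in Hnrnpl-null. All 3 Hnrnpl-null libraries were above all WT libraries, by a ratio of 1.25 (95% interval 1.03 to 1.51, edgeR adjusted p = 0.20). Rpa2, the middle subunit, was at 20.6, 19.9 and 18.6 CPM in WT and at 20.3, 18.7 and 11.2 CPM in Hnrnpl-null, where only the shallow replicate 3 stood low. Rpa3, the small subunit, rested on 10 to 67 counts per library and was at 1.97 ± 0.998 and 2.74 ± 0.426 CPM.

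All 8 genes of the BRCA group, which prepares the coated strand for pairing, had lower estimates in Hnrnpl-null, with a median log2 fold change of -0.22 and 0 calls. The sign was not stable for each of them, since Rad51b turned higher in 6 of 20 alternatives (limma-voom 0.01, replicate block 0.08), Brca1 without Hnrnpl-null replicate 1 (0.10) and Xrcc3 without Hnrnpl-null replicate 2 (0.16). Brca2 (chromosome 5, 150522621 to 150570146), a tumour suppressor that acts on RPA-coated single-stranded DNA, was at 49.0, 39.3 and 39.9 CPM in WT and at 33.6, 33.7 and 31.9 CPM in Hnrnpl-null. The Hnrnpl-null libraries lay within 2 CPM of each other and below all 3 WT libraries. The difference for Brca2 on the log2 scale was -0.36 ± 0.13 (SE, adjusted p = 0.15 by edgeR), and its adjusted p was 0.12 or more in each of the 20 alternatives. Palb2, the bridge between BRCA1 and BRCA2, was at 6.23 ± 0.553 and 5.68 ± 1.04 CPM. Brca1, which promotes resection and recruits PALB2, was at 25.6, 22.8 and 24.2 CPM in WT but at 15, 22.9 and 30.0 CPM in Hnrnpl-null, a spread within 1 group that spans the whole WT range.

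Rad51c, Rad51d, Rad51b, Xrcc2 and Xrcc3 encode small mediators that work with BRCA2, and Rad51c had the lowest estimate of the 35 members. It was at 6.85, 3.23 and 5.79 CPM in WT and at 2.45, 1.45 and 5.0 CPM in Hnrnpl-null. The groups overlapped, since Hnrnpl-null replicate 3 was above WT replicate 2, and the log2 fold change of -1.04 had an interval of -2.04 to -0.04 (edgeR adjusted p = 0.25). Rad51d was at 10.8 ± 2.33 and 8.97 ± 2.25 CPM, Xrcc2 at 6.94 ± 0.789 and 5.28 ± 2.98 CPM, and Xrcc3 at 7.86 ± 0.924 and 7.81 ± 3.23 CPM. Rad51b rested on 4 to 66 counts per library, at 2.16 ± 1.19 and 2.03 ± 0.677 CPM.

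The translocases and the helicase that resolve recombination intermediates also had lower estimates. Blm (chromosome 7, 80454993 to 80535119), the helicase that dissolves joined molecules, was at 15.5, 15.1 and 16.7 CPM in WT and at 12.8, 11.3 and 12.5 CPM in Hnrnpl-null. Both groups were tight and apart, with a ratio of 0.770 (95% interval 0.596 to 0.996, edgeR adjusted p = 0.26). Rad54l, a DNA translocase that acts in strand pairing, was at 8.17, 8.71 and 9.85 CPM in WT and at 6.41, 7.88 and 5.62 CPM in Hnrnpl-null. Its groups were apart as well, its exons overlap those of Lrrc41 on the opposite strand, and its edgeR adjusted p was 0.41. The related Rad54b overlapped between groups at 4.11 ± 1.04 and 4.03 ± 1.84 CPM, its estimate changed sign without WT replicate 2 (0.11) or Hnrnpl-null replicate 1 (0.23), and it shares 4126 bases of exon with Fsbp.

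In the Fanconi core complex, the ubiquitin ligase that senses crosslinks, 7 of 8 estimates were lower, with a median of -0.23 and 0 calls. Fancf changed sign in 4 of 19 alternatives and Fanca in 1 of 20, without Hnrnpl-null replicate 3 (0.07). Fance (chromosome 17, 28313530 to 28326574), the subunit that touches FANCD2, was at 15, 14.8 and 13.2 CPM in WT and at 10.5, 11.7 and 10.3 CPM in Hnrnpl-null. It was the member of the core whose groups did not overlap, with a ratio of 0.758 (95% interval 0.579 to 0.994, edgeR adjusted p = 0.26). Fancm, the DNA translocase that anchors the complex, was at 14.6 ± 0.750 and 11.2 ± 2.94 CPM. Fancl, the catalytic ligase subunit, was at 5.70 ± 1.53 and 5.27 ± 0.658 CPM. The scaffold subunits Fanca and Fancc were at 7.72 ± 1.89 and 11 ± 1.02 CPM in WT and at 6.53 ± 2.95 and 9.69 ± 1.39 CPM in Hnrnpl-null.

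Of the remaining core subunits, Fancg and Fancf were lowest and Fancb highest in the shallow Hnrnpl-null replicate 3. Fancg was at 6.59, 6.38 and 6.68 CPM in WT and at 6.53, 5.41 and 1.25 CPM in Hnrnpl-null, where the last value was 4 counts. Fancb, the X-linked subunit, was at 1.77 ± 0.335 CPM in WT and at 2.19, 1.75 and 5.0 CPM in Hnrnpl-null, where replicate 3, with 16 counts, stood far above the other 5 libraries. Fancf had 0 counts in Hnrnpl-null replicate 3, which allows a level of up to 1.87 CPM there (3 read pairs, or 6 counts, counting error only), and it was at 2.28 and 0.761 CPM in Hnrnpl-null replicates 1 and 2 and 0.746 to 2.63 CPM in WT.

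Both subunits of the ID complex, the clamp that the core ubiquitinates, had lower estimates. Fancd2 (chromosome 6, 113531682 to 113597020) was at 27.9, 29.4 and 39.6 CPM in WT and at 24.1, 21.6 and 10.6 CPM in Hnrnpl-null. The groups were apart, WT replicate 3 was the highest and Hnrnpl-null replicate 3 the lowest. The log2 fold change was -0.71 ± 0.23 (SE, edgeR adjusted p = 0.10, and DESeq2 adjusted p = 0.031), and without Hnrnpl-null replicate 3 it was -0.50. The adjusted p was 0.0055 to 1.0 over the alternatives, and at most 0.33 (edgeR) when a single library was left out. Fanci, its partner, was at 7.11, 9.54 and 11.6 CPM in WT and at 7.71, 5.22 and 6.25 CPM in Hnrnpl-null. Only WT replicate 1 fell within the Hnrnpl-null range, and the log2 fold change was -0.57 ± 0.26 (SE, edgeR adjusted p = 0.27), with 665 bases of exon shared with Polg on the opposite strand.

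**Figure D3:**
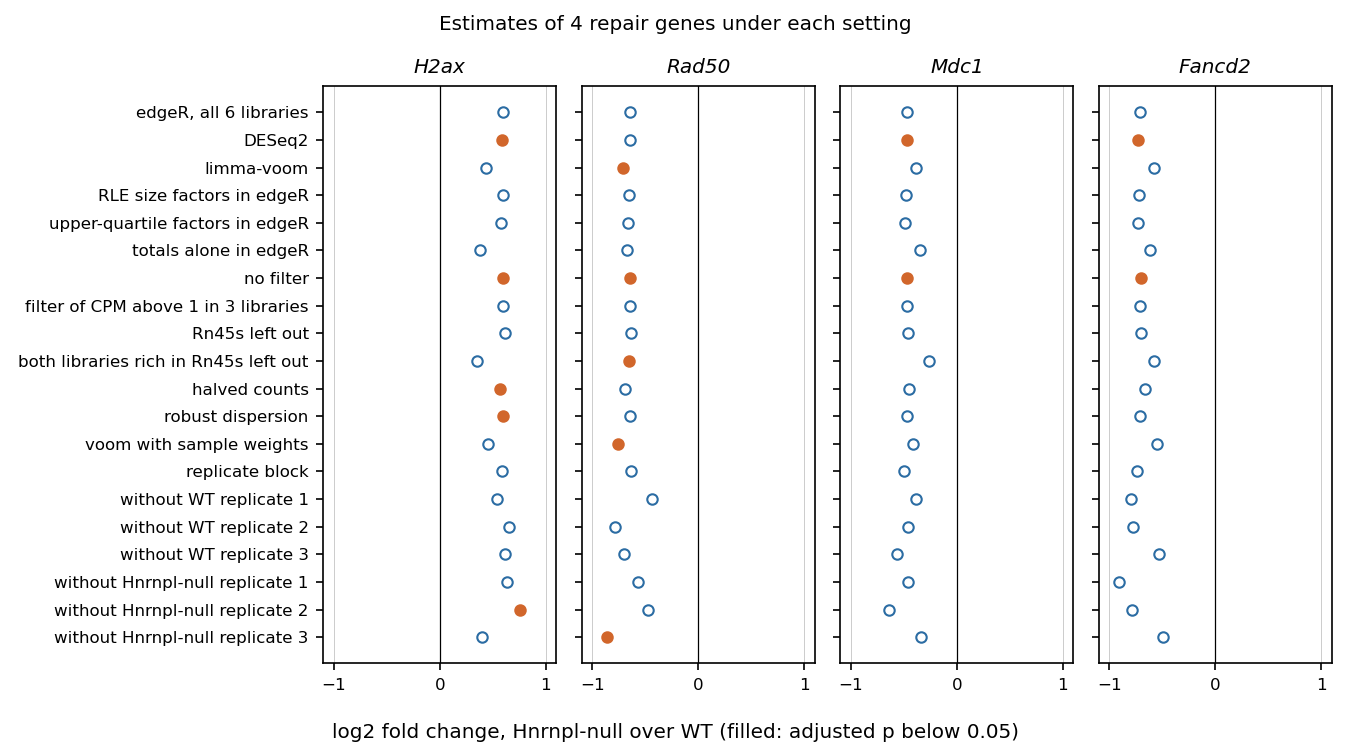
The log2 fold change of H2ax, Rad50, Mdc1 and Fancd2 is plotted for the edgeR fit of all 6 libraries and each alternative (rows), with filled points where the adjusted p was below 0.05. The 4 genes keep their side of 0 in every row, all 4 are filled with no filter, and Mdc1 and Fancd2 are filled only there and with DESeq2.

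Other genes of the same pathways were taken from a list of 50, of which 49 were tested. Atrip had 0 counts in every library, but 2545 of its 2572 exonic bases are shared with Atrip-trex1 on the same strand, so that 0 gives no level. In this list 2 were lower and 0 higher by edgeR, with a median log2 fold change of -0.01, the same as that of all tested genes, and limma-voom and DESeq2 each called 2 lower and 1 higher. Rif1, the effector of 53BP1 that protects ends from resection, fell from 85.8, 80.2 and 104 CPM in WT to 67.9, 52.2 and 64.4 CPM in Hnrnpl-null (edgeR adjusted p = 0.037). Leaving out WT replicate 1, 2 or 3, or replicate 2 of Hnrnpl-null, ended that call (edgeR adjusted p of 0.065 to 0.18). Atr, the kinase activated by RPA-coated DNA, was at 61.4% of WT (edgeR adjusted p = 0.023), which did not hold when WT replicate 2, WT replicate 3 or replicate 2 of Hnrnpl-null was left out (edgeR adjusted p of 0.058 to 0.11).

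Partners of single members did not always lean the same way as the member. Usp1, the enzyme that removes ubiquitin from FANCD2, was at 21.1, 22 and 22.8 CPM in WT. In Hnrnpl-null it was at 26.4, 34.4 and 41.9 CPM, and the groups did not overlap. Its estimate was higher (edgeR adjusted p = 0.055, and called by DESeq2 with an adjusted p of 0.026), whereas Fancd2 had a lower one. Dna2, a nuclease of long-range resection, was at 4.06 ± 0.325 and 7.43 ± 2.10 CPM (edgeR adjusted p = 0.095, and called by limma-voom with an adjusted p of 0.039). The BRCA1 partner Bard1 was at 11.1 ± 1.22 and 8.49 ± 2.57 CPM, with overlapping groups.

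Lists of meiotic and of dividing cells moved beside the repair genes, in opposite directions. Of 11 tested meiotic prophase genes, 8 were lower by edgeR and 0 higher (median log2 fold change -1.03), and their summed level was 166 to 202 CPM in WT and ran from 75.1 to 83.1 CPM in Hnrnpl-null. Among 13 tested meiosis-only recombination genes 3 were lower and 0 higher (median -0.55). Hsf2bp, which encodes the meiotic partner of BRCA2, was at 5.94 ± 0.340 and 2.31 ± 1.29 CPM (edgeR adjusted p = 0.088), a log2 fold change of -1.22 beside -0.36 for Brca2. Of 16 dividing cell genes, 7 were higher and 0 lower (median 0.53), and their sum was 573 to 585 CPM in WT and ran from 772 to 778 CPM in Hnrnpl-null. The helicase subunit Mcm7, for example, rose from 31.2 ± 3.40 to 52.7 ± 5.32 CPM (edgeR adjusted p = 0.0058). The others called were Top2a, Mcm2, Mcm3, Rrm1, Rrm2 and Cdt1. Mki67 and Cdk1 of the same list had log2 fold changes of 0.10 and 0.07 (edgeR adjusted p of 0.74 and 0.88), so the list did not move as a whole. The repair members summed to 625 to 643 CPM in WT and to 573 to 597 CPM in Hnrnpl-null.

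**Figure D4:**
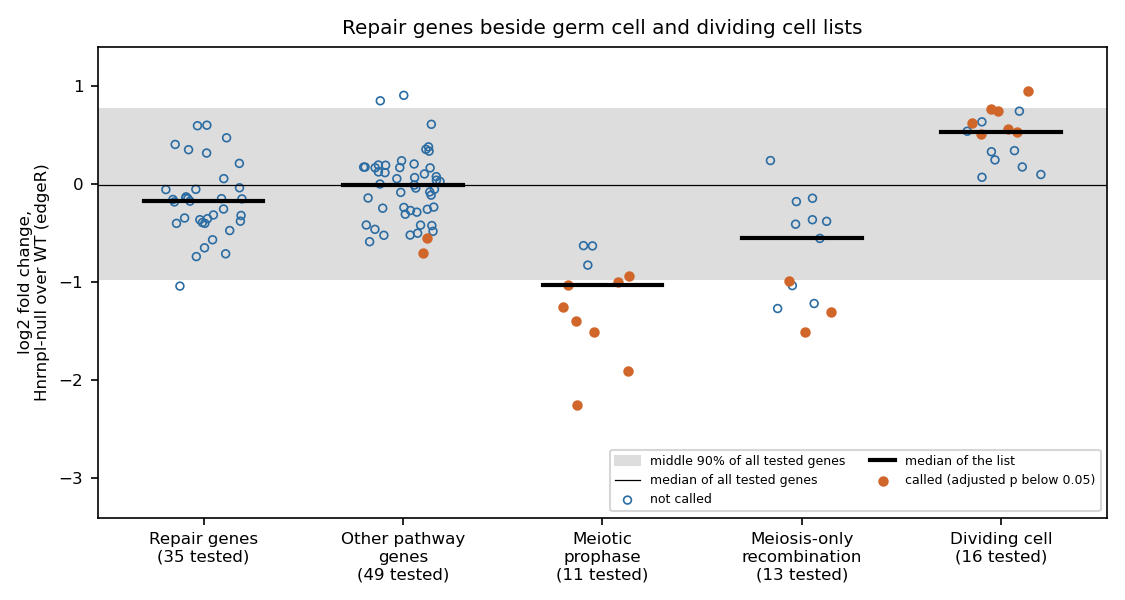
The log2 fold change of each tested gene (edgeR, Hnrnpl-null over WT) is plotted for the repair genes and 4 other lists, with called genes filled, a bar at each list's median and grey for the middle 90% of all tested genes. The repair genes centre at -0.17 with none filled, between the meiotic prophase genes at -1.03 and the dividing cell genes at 0.53.

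Markers of other cells also differed. Of 6 germ cell genes 4 were lower by edgeR (median log2 fold change -0.87), with a sum of 139 to 154 CPM in WT and of 79.0 to 90.6 CPM in Hnrnpl-null. Of 6 stromal genes 3 were higher and of 6 pregranulosa genes 1 was higher, with sums of 4164 to 4484 and 289 to 303 CPM in WT and of 6237 to 7036 and 366 to 396 CPM in Hnrnpl-null. The 3 stromal genes were the matrix genes Col1a1, Col1a2 and Dcn, and most of the stromal sum is Col1a1 and Col1a2, while Nr2f2 and Tcf21 had log2 fold changes of -0.04 and -0.16. The pregranulosa gene was Kitl, the ligand of the oocyte receptor KIT, at 78.4 ± 7.05 and 174 ± 4.02 CPM (edgeR adjusted p = 3.7e-05), and the median of that list was -0.04. Of the 4 endothelial and 3 tested erythroid genes edgeR called 0, with 4 at an unadjusted p below 0.05, and DESeq2 and limma-voom called the same 4. The endothelial genes among them differed in direction (log2 fold changes of -0.64 for Cdh5 and 0.35 for Kdr). The erythroid ones were both higher (1.23 for Slc4a1 and 0.94 for Alas2), with groups that overlapped. All 7 myeloid progenitor genes were higher, from a sum of 3.16 to 3.81 CPM in WT to 546 to 722 CPM in Hnrnpl-null, with Ms4a3 at 0 in every WT library. Of 6 tested leukocyte genes 3 were higher, with a sum of 57.0 to 64.2 CPM in WT and of 136 to 142 CPM in Hnrnpl-null. The 3 were Ptprc, Coro1a and Laptm5, while C1qa and Lyz2 overlapped between groups, with log2 fold changes of -0.25 and 0.14. The part of germ cells, dividing cells, stroma and blood cells in the levels of the repair genes was not tested.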

How the data were processed

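The authors deposited a table of raw gene counts for 6 libraries, whose layout is that of featureCounts per the file headers, with each gene's exons and exonic length. The build mm10 and the tools featureCounts 2.0.6, HISAT2 2.2.1 and STAR 2.7.11a are named, per the submitters' processing notes, with no role. Ovaries were digested to single cells and total RNA was used, per the labels' protocols. Strand setting and annotation were not given in the sources used here. Totals were 8949781 to 22401419 counts. Between 93.4% and 98.4% of counts from 1 to 20 were even, as if each read pair had been counted as 2. The labels do not state whether replicates are separate animals, and p-values then reflect only the spread among these libraries, possibly a technical one.

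Counts were tested in R 4.3.3 with edgeR 4.0.16 (filterByExpr, TMM, glmQLFit, glmQLFTest, two-sided, genotype as the only term, all 6 libraries) and adjusted over all 14849 tested genes by Benjamini-Hochberg. Standard errors and 95% intervals were derived from the F statistic. The script was tested on simulated data. DESeq2 1.42.0 and limma 3.58.1 (voom) were alternatives, with other scalings, filters, left-out libraries, robust dispersions, a replicate block and halved counts. Members, lists and tests were chosen with earlier results of these data known. Values in every library are given for members that any of the 3 tools called and for the smallest p of each role, and other members shown that way were chosen after their values were seen. Of the list symbols, 2 were matched through RefSeq synonyms, and Ahsp was not matched. No sequence of the proteins was used here. A gene of the pathway list is not reported here.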

Additional observations from a re-analysis of the deposited data

How the results depend on the processing

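The median log2 fold change of the repair members moved little, from -0.26 to -0.16 over the 20 alternatives, while 23 to 27 members had a lower estimate. The count of members called lower, 0 in the edgeR fit of all libraries, was 2 with DESeq2, 1 with limma-voom, 1 with voom and sample weights, 3 with no filter and 1 without both libraries rich in Rn45s, and 0 to 1 when a single library was left out. The count called higher, also 0, was 1 with DESeq2, with no filter, with halved counts and with robust dispersions, and 0 to 1 when a single library was left out. Of the other pathway genes, the 2 called lower became 0 with totals alone or at an adjusted p below 0.01 and 0 to 2 when a library was left out, and the 0 called higher became 1 with DESeq2, limma-voom, no filter, robust dispersions or voom with sample weights, and 0 to 1 when a library was left out. The number of genes called over the whole table was 663, against 1071 with DESeq2, 1273 with limma-voom, 1222 with sample weights, 1104 with no filter, 236 at an adjusted p below 0.01, 4 with totals alone, and 249 to 853 when a library was left out. Without the 2 libraries rich in Rn45s, 16 members had lower and 3 higher groups that did not overlap (45.7% and 8.57%, against 24.9% and 24.9% of all tested genes), a choice made after seeing the data. The cause of these differences was not tested.

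With the replicate block, 0 members were called lower and 0 higher, 2 other pathway genes were lower and 0 higher, and 444 genes were called over the whole table. Same-numbered libraries did not deviate together (correlations of -0.12, 0.09 and -0.09 for numbers 1 to 3), and not every library correlated best with its own number, so the numbers were not taken as pairs. In a shorter promoter window of 150 bases before to 50 after the start, E2F letters were in 4 of 26 members (not in Brca2), CCAAT in 13, STRA8 letters in 2 and the CHR letters in 1. Fancf was not tested with halved counts.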

Other observations

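Ratios between partners within a library do not depend on how libraries are scaled. The 4 pairs below were chosen after their values were seen, so they are descriptions with no test. The count of Rad50 was 2.79, 2.64 and 2.91 times that of Nbn, a subunit of the same complex, in WT replicates 1 to 3 and 1.71, 1.0 and 1.5 times in Hnrnpl-null replicates 1 to 3. For Fancd2 over Usp1, which removes its ubiquitin, the ratio was 1.33, 1.34 and 1.73 in WT and 0.914, 0.627 and 0.254 in Hnrnpl-null. The H2ax count was 0.484, 0.621 and 0.683 times that of Mdc1, its reader, in WT and 1.20, 0.814 and 2.08 times in Hnrnpl-null. Rpa1 over Rpa2 was 1.53, 1.53 and 1.48 in WT and 1.86, 2.07 and 3.0 in Hnrnpl-null. In each pair the groups did not overlap, and how often other gene pairs did the same was not counted. Each pair joins a gene with a higher estimate to one with a lower estimate, a choice that by itself makes separate groups more likely. The ratios are of raw counts without correction for gene length, so a single ratio does not compare the levels of its partners. A ratio that differs between groups does not show which partner differed.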
